A study of Mus musculus with 8 samples.

Results

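Glycolysis, the cytosolic route from glucose to pyruvate and lactate, was described in posterior palatal shelf tissue of mouse embryos at E14.5 through 10 enzyme genes: Hk1, Hk2, Gpi1, Pfkl, Aldoa, Tpi1, Gapdh, Pgk1, Eno1 and Ldha. They were taken by gene symbol from a table of 55536 genes, in which they hold 11 rows because Aldoa has 2 gene IDs. All 11 rows passed the filter on low values, as did 16647 genes in all. The shelves, which grow out from each side of the mouth and meet to make the palate, were dissected before elevation, and the tissue held epithelium as well as mesenchyme. There were 4 mutant libraries (genotype Yapfl/fl;Tazfl/fl;Col2Cre) and 4 control libraries (genotype Yapfl/fl;Tazfl/fl), so that the floxed alleles of the Hippo pathway co-activators YAP and TAZ are shared by both groups and only the mutants carried the Cre. Col2Cre is a Cre driven by regulatory sequence of the cartilage collagen gene Col2a1, so the dissected tissue may hold cells that never expressed it. Whether every library came from its own embryo is not stated, so p-values reflect the spread between libraries, which may be technical.

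In glycolysis a hexokinase traps glucose as glucose 6-phosphate, phosphofructokinase makes the committed step, aldolase splits the sugar into a pair of triose phosphates, and the later enzymes recover ATP on the way to pyruvate, which lactate dehydrogenase can reduce to lactate. Most steps have several isozymes from separate genes, with tissue preferences such as the muscle and brain forms. Many of these genes are known targets of the hypoxia-inducible factors and of MYC, and YAP and TAZ act on DNA through the TEAD factors. Cartilage and bone-forming cells are known for heavy use of glycolysis.

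Promoter sequence is shown for 4 of the enzymes, chosen to show windows with several HIF cores and one without. RefSeq windows of 300 bases (250 before the start and 50 after it, GRCm38.p6) were matched by symbol for all 10 genes, 16 windows in total, some of which overlap because the start sites of Eno1 and of Aldoa lie close together. The HIF core was searched as ACGTG or GCGTG on both strands, so that a palindromic CACGTG counts once on each strand, and the TEAD core as CATTCC on both strands. A HIF core was found in 12 of the 16 windows, from 8 of the 10 genes, against 43.8% of 32851 windows of all genes. A TEAD core was found in 3 windows, from Eno1 and Aldoa, against 14.7% of all windows. These matches describe letters in a window and say nothing of binding. The 250 bases before the start follow, 5′ to 3′ on the strand of the gene, with every HIF core in capitals. The Ldha window (chr7:46845554-46845803, plus strand) holds 5 matches, the Hk1 window at its downstream start site (chr10:62340422-62340671, minus strand) holds 3, the Gapdh window (chr6:125165774-125166023, minus strand) holds 2 and the Tpi1 window (chr6:124814159-124814408, minus strand) holds 0.
Ldha: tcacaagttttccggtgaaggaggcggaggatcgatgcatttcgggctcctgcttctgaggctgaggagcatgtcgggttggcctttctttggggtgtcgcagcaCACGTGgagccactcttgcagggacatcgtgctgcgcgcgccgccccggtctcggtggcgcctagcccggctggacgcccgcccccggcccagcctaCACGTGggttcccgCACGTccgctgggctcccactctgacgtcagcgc
Hk1: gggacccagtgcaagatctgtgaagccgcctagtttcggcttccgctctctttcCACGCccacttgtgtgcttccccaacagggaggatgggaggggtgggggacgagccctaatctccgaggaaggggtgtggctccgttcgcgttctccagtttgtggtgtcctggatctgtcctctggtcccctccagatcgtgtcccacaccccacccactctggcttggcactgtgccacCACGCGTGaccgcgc
Gapdh: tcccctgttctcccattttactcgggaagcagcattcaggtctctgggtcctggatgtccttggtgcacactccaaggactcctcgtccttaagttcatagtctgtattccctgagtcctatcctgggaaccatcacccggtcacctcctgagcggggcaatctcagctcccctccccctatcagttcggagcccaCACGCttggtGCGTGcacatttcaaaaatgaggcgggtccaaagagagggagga
Tpi1: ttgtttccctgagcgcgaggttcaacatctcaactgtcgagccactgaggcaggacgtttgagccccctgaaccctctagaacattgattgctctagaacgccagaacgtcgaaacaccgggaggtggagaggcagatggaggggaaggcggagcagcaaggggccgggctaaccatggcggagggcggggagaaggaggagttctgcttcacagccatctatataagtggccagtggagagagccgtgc

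Libraries were of even depth, 29025089 to 32437977 reads recovered from the table. The values below are the authors' normalised counts, in which the reads of a gene were scaled by the size factor of the library. Both targeted genes were listed with lower means in mutants without passing the test: Yap1 averaged 8463 ± 277 normalised counts in mutants and 9610 ± 429 in controls, and Wwtr1, the gene for TAZ, averaged 4007 ± 397 in mutants and 4879 ± 352 in controls (SD, n = 4 each; limma adjusted p = 0.751 for both). These counts cover whole genes and do not separate floxed exons. All mutant libraries of Yap1 lay below all control libraries, as for 1.91% of all tested genes, while those of Wwtr1 overlapped the controls. The ribosomal RNA locus Gm42418 took 2.08% ± 0.389 of normalised counts in mutants and 5.10% ± 0.632 in controls (SD, n = 4 each), and its part in the results below was not tested.

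None of the 10 enzyme genes passed the test between mutants and controls. The comparison used limma on log2(normalised count + 1) with Benjamini-Hochberg adjustment over all 16647 genes at a threshold of 0.05, and over all genes it called 4 genes, all lower in mutants (0.024%). Of the enzyme genes 9 of 10 had a lower mean log2 level in mutants, where 50% of all tested genes did, and Pgk1 was the exception. Their median log2 difference was -0.12, against a median of all tested genes within 0.01 of 0. The smallest adjusted p was 0.754. For all 10 genes the mutant and control libraries overlapped. At an unadjusted p below 0.05, 2 of the 10 genes were lower in mutants (Hk1 and Gapdh), where 3.79% of all genes were lower and 2.78% higher (6.57% in either direction). DESeq2 and edgeR on recovered reads called 0.168% and 0.03% of all genes and 0 of the 10. The count of 2 at an unadjusted p changed with single libraries: it was 5 without control replicate 3, 4 without mutant replicate 4, 1 without mutant replicate 2, mutant replicate 3, control replicate 1 or control replicate 2, and 0 with the opening number of the titles as a block. In whole shelves, a lower count from fewer cells of a type and one from less RNA per cell cannot be told apart.

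**Figure D1:**
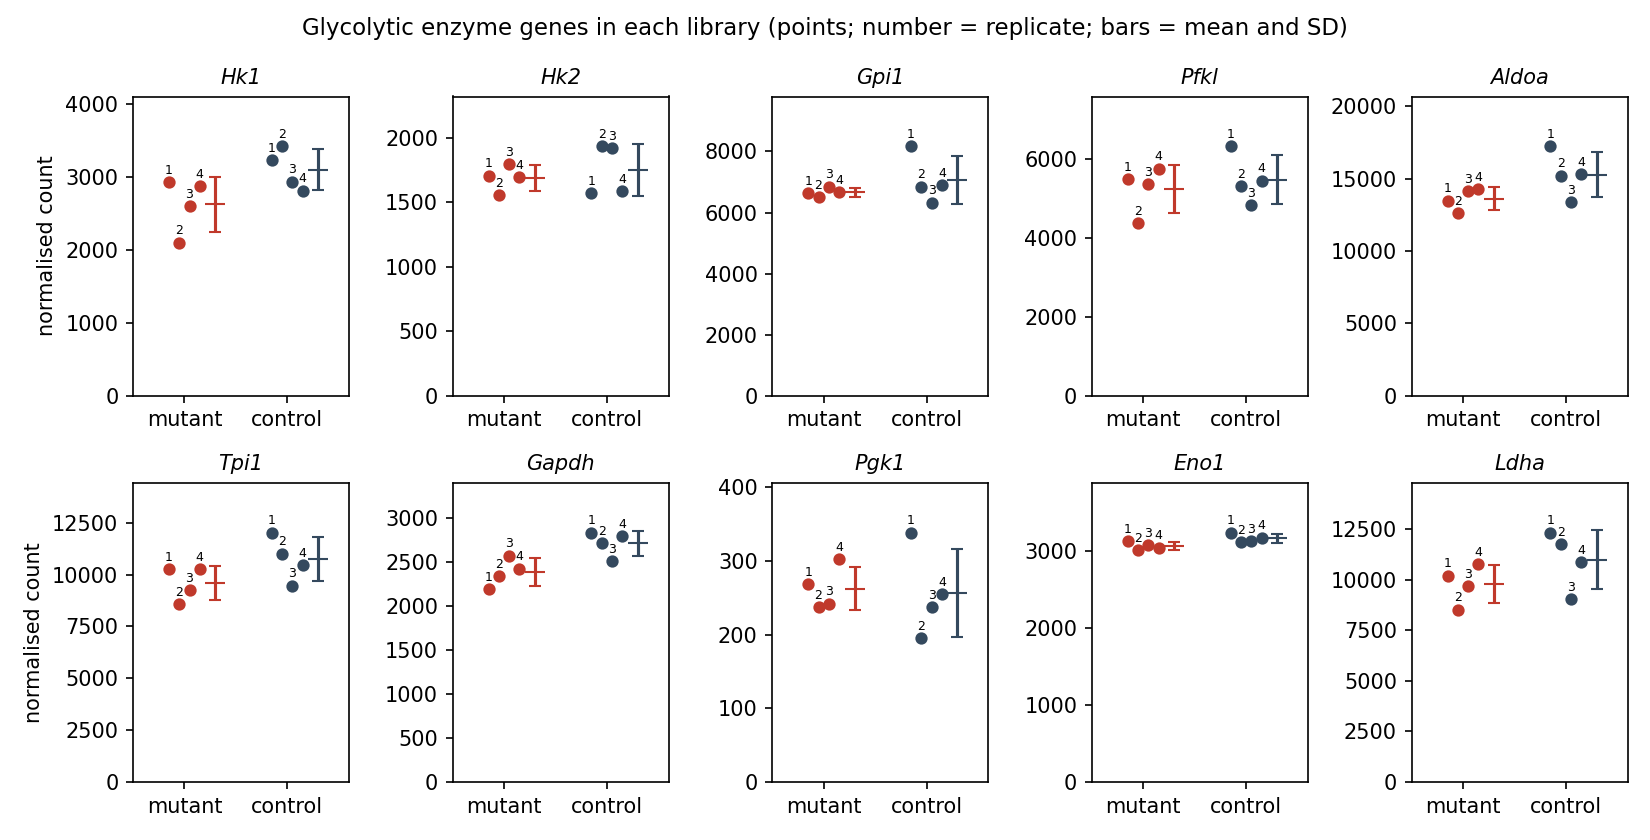
Normalised counts (vertical axes, each starting at 0) of the 10 enzyme genes in the 4 mutant libraries (red, left) and the 4 control libraries (blue, right). Points are libraries numbered by replicate and bars are mean and SD; the groups overlap in all 10 panels, and mutant replicate 2 is the lowest library in 7 of them.

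The first step of the pathway gave the largest log2 difference of the 10 genes. Hk1 (ENSMUSG00000037012, chromosome 10 from 62268855 to 62379908, by the table's own positions) encodes hexokinase 1, the hexokinase of most tissues, which binds to mitochondria. Its normalised counts were 2926.0, 2095.4, 2595.4 and 2868.5 in mutant replicates 1 to 4, against 3230.6, 3415.7, 2931.2 and 2809.6 in control replicates 1 to 4. Only control replicate 4 lay inside the mutant range, and mutant replicate 2 stood lowest. The log2 difference was -0.25 (SE 0.104; limma adjusted p = 0.754), a change of -15.8% with a 95% interval from -28.1% to -1.46% before adjustment. Without mutant replicate 2 it was -0.14. Hk1 shares no stretch of 50 bases of its main coding transcript with another annotated gene, and an antisense gene, Hk1os, lies within it at 26.4 ± 14.9 normalised counts in mutants and 32.6 ± 14.6 in controls, so reads of both cannot be separated where the strand setting is not known. Hk2 encodes hexokinase 2, the form of muscle and of fast-growing tissue that insulin and hypoxia are known to induce. It had 1704.7, 1554.1, 1794.6 and 1695.2 normalised counts in mutants, against 1567.4, 1932.8, 1917.5 and 1583.1 in controls. The mutant values lay almost wholly inside the control range, and the log2 difference was -0.05 (SE 0.0880; limma adjusted p = 0.944; -15.3% to 10.5% at 95%). With control replicate 1 left out it was -0.10, with control replicate 3 left out -0.0013, and with mutant replicate 2 left out -0.0087.

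The isomerase and phosphofructokinase genes overlapped between the groups and did not pass the test. Gpi1 encodes glucose 6-phosphate isomerase, which also acts outside cells as a cytokine. It had 6632.9, 6495.5, 6843.5 and 6673.6 normalised counts in mutants, against 8167.1, 6843.0, 6323.0 and 6890.0 in controls. The mutants formed a tight set and control replicate 1 stood above every other library (log2 difference -0.08, SE 0.0717, limma adjusted p = 0.866). The Gpi1 difference was -0.0043 without control replicate 1 and -0.13 without control replicate 3. Pfkl encodes the liver-type subunit of phosphofructokinase. Its normalised counts were 5477.7, 4369.8, 5347.0 and 5744.1 in mutants and 6310.1, 5305.5, 4814.8 and 5442.5 in controls. Here mutant replicate 2 was low and control replicate 1 high, with the other 6 libraries intermixed (log2 difference -0.06, SE 0.0960, limma adjusted p = 0.925). Leaving out either of those libraries turned the sign of the Pfkl difference, to 0.02 without mutant replicate 2 and 0.01 without control replicate 1.

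The aldolase and triose phosphate isomerase genes had lower means in mutants without passing the test. Aldoa encodes aldolase A, the form of muscle and of most embryonic tissue. Its main row (ENSMUSG00000030695) had 13480.7, 12610.5, 14152.9 and 14280.8 normalised counts in mutants, against 17236.2, 15218.7, 13364.1 and 15309.0 in controls. Control replicate 3 lay among the mutants and the other 3 controls above all of them. The log2 difference was -0.16 (SE 0.0750, limma adjusted p = 0.754; -20.1% to 0.203% at 95%), and -0.10 without control replicate 1. The second Aldoa row (ENSMUSG00000114515), which overlaps the first on chromosome 7 in the coordinates of the table, held 56.4 to 87.0 normalised counts in mutants and 51.1 to 94.3 in controls, and reads falling in the overlap can be split between the rows. In the GENCODE M21 annotation, the source of the lengths used below, the main row ends at 126800751 instead of 126808905. The second row starts at 126800790, so that the rows do not overlap there. Tpi1 encodes triose phosphate isomerase, which interconverts the triose phosphates. It had 10263.9, 8561.6, 9257.4 and 10269.4 normalised counts in mutants, against 12029.2, 11010.3, 9476.7 and 10462.7 in controls. As for Aldoa, control replicate 3 was the control that lay among the mutants (log2 difference -0.16, SE 0.0811, limma adjusted p = 0.769), and the difference was -0.11 without control replicate 1.

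For 3 of the 10 genes most of the transcript is shared with other annotated genes, and their counts are uncertain. Of the 50-base stretches of the main coding transcript, 82.5% of those of Gapdh, 72.2% of those of Eno1 and 68.0% of those of Pgk1 also occur in another annotated gene, against 25.3% for Gpi1 and less for the rest. With stretches of 100 bases the shares were 78.0% for Gapdh, 59.0% for Eno1 and 67.0% for Pgk1. Gapdh has 223 such partner genes, of which 209 are annotated as pseudogenes, and those pseudogenes together held a mean of 1902 normalised counts, against 2542 for Gapdh itself. The pseudogenes that share with Pgk1 and Eno1 held means of 0.388 and 7.31 in sum. Pgk1 has 5 partner genes and Eno1 has 23, while Ldha has 328 and Gpi1 has 122 through a smaller part of their transcripts. How reads that match several places were counted was not stated. Gapdh-ps14, a named Gapdh copy that passed the filter, had 12.3 ± 5.91 normalised counts in mutants and 9.90 ± 2.15 in controls (SD, n = 4 each).

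**Figure D2:**
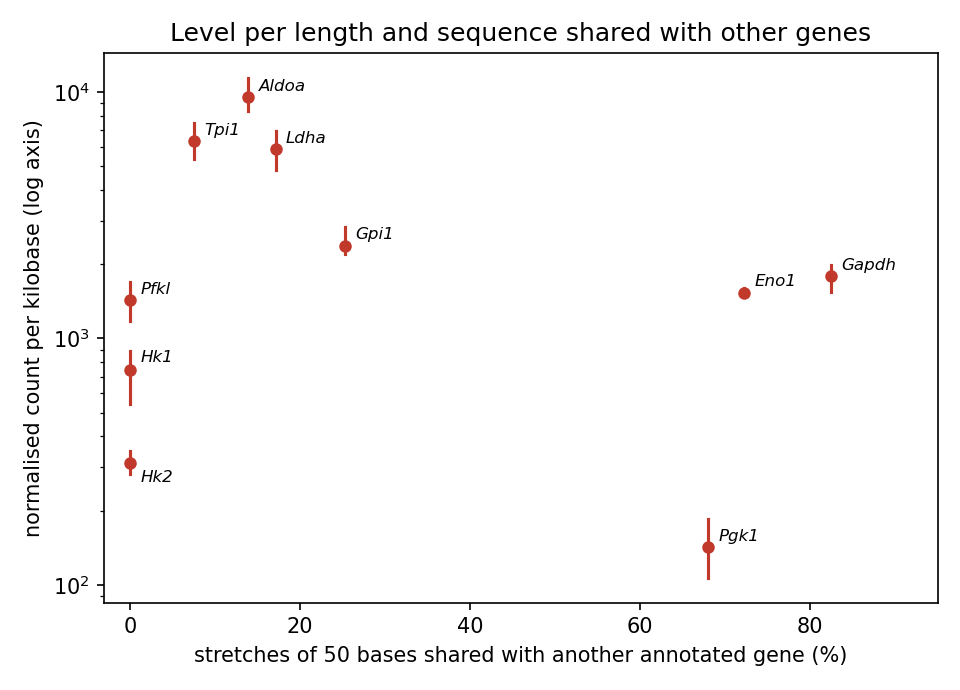
Share of 50-base stretches of the main coding transcript that occur in another annotated gene (horizontal axis, percent) against the normalised count per kilobase of that transcript (vertical axis, log scale) for the 10 enzyme genes. Points are means and bars the range over the 8 libraries; Gapdh, Eno1 and Pgk1 lie to the right at 82.5%, 72.2% and 68.0%, and Pgk1 has the lowest level.

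With that limit, the payoff phase looked as follows. Gapdh (ENSMUSG00000057666, chromosome 6 from 125161715 to 125166467) encodes glyceraldehyde 3-phosphate dehydrogenase, often used as a constant control gene. It had 2187.9, 2337.7, 2567.4 and 2418.4 normalised counts in mutants, against 2829.2, 2707.9, 2502.3 and 2788.0 in controls. The groups overlapped only through mutant replicate 3 and control replicate 3. The log2 difference was -0.19 (SE 0.0678, limma adjusted p = 0.754), a change of -12.2% with a 95% interval from -20.8% to -2.71% before adjustment. With any 1 library left out it ran from -0.23 to -0.15. Pgk1 encodes phosphoglycerate kinase 1, which makes the first ATP of the payoff phase. Its counts were 268.4, 237.6, 242.2 and 302.4 in mutants and 338.6, 195.2, 237.0 and 255.3 in controls. Controls held both the highest and the lowest library (log2 difference 0.06, SE 0.185, limma adjusted p = 0.971; -21.5% to 37.5% at 95%), and the difference was -0.07 without control replicate 2, -0.01 without mutant replicate 4 and 0.20 without control replicate 1. Eno1 encodes enolase 1, which forms phosphoenolpyruvate. It had 3121.5, 3008.8, 3071.0 and 3040.5 normalised counts in mutants, against 3233.8, 3110.1, 3118.9 and 3169.0 in controls. Its spread was the narrowest of the 10 genes, and its log2 difference of -0.05 (SE 0.0505, limma adjusted p = 0.891) had a 95% interval from -10.2% to 4.61%.

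Ldha (ENSMUSG00000063229, chromosome 7 from 46841475 to 46855627), the lactate dehydrogenase subunit that favours lactate formation, closes the pathway. It had 10192.9, 8516.2, 9662.7 and 10763.0 normalised counts in mutants, against 12319.9, 11761.0, 9015.1 and 10861.4 in controls. Control replicates 1 and 2 were high, and control replicate 3 was lower than 3 of the 4 mutants. The log2 difference was -0.16 (SE 0.0978, limma adjusted p = 0.787; -23.0% to 3.57% at 95%). The difference was -0.25 without control replicate 3 and -0.10 without either mutant replicate 2 or control replicate 1.

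**Figure D3:**
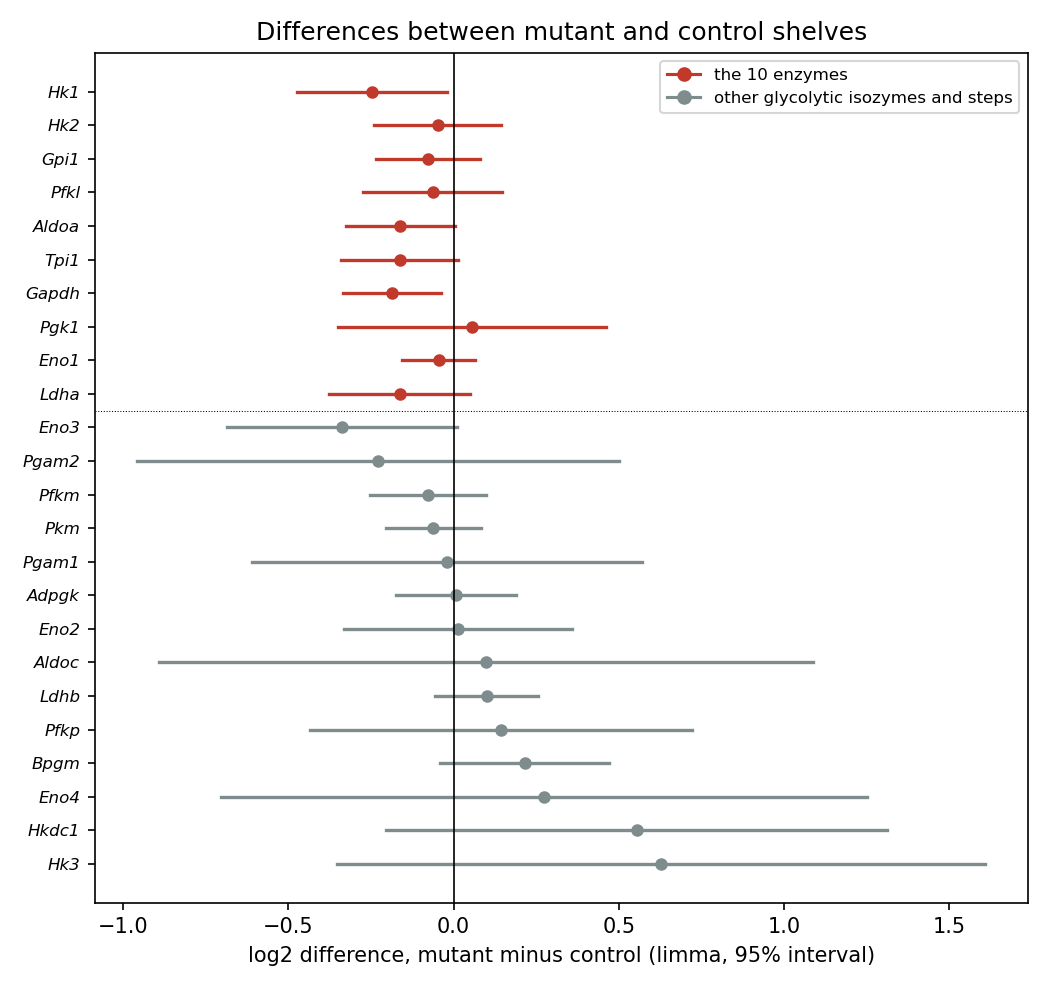
Log2 difference between mutants and controls (horizontal axis; points, with 95% limma intervals as lines) for the 10 enzyme genes (red) and 14 of the 15 other tested glycolytic genes (grey). The red points lie between -0.25 for Hk1 and 0.06 for Pgk1, and 8 of the 10 red intervals include 0.

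The enzyme genes shared their lowest and highest libraries. Mutant replicate 2 was the lowest library for 7 of the 10 genes and lay below the mean over the 8 libraries for all 10. Control replicate 1 was the highest for 8 of the 10. Centred on each gene's mean, the 10 genes averaged -0.19 on the log2 scale in mutant replicate 2 and 0.19 in control replicate 1, and between -0.06 (control replicate 3) and 0.05 (control replicate 2) in the other 6 libraries. Summed over the 10 genes the normalised counts were 54908 ± 3575 in mutants (49787 to 58056) and 60508 ± 5592 in controls (53701 to 67262; SD, n = 4 each). Without both of these libraries, a choice made after seeing the data, 7 of the 10 genes still had lower means in mutants, the median log2 difference was -0.05 and 0 of 10 had an unadjusted limma p below 0.05. Hk1 was then at -0.12, Gapdh at -0.16, Aldoa at -0.06, Tpi1 at -0.05 and Ldha at -0.04. The titles begin with a number whose meaning is not given. Within number 2057 (1 mutant and 2 controls) 8 of the 10 genes were lower in the mutant, at a median of -0.05 (log2), and within number 3602 (2 mutants and 1 control) 6 were lower, at a median of -0.02. The other 2 libraries, mutant replicate 1 and control replicate 1, share no number with the other group.

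Markers of several cell types were lowest or highest in the same libraries. The 10 tested genes of the osteogenic list (of 11, with Bglap at 0 in every library) had a summed level of 120197 to 198664 normalised counts in mutants and 214310 to 246105 in controls. Most of that sum was Col1a1, at 113410 to 178482 in mutants and 168705 to 219318 in controls, which overlapped. The mean centred log2 level of the 10 genes, in which each gene counts alike, was lowest in mutant replicate 2 (-1.25). It was highest in control replicate 1 (1.15), and these were the libraries with the lowest and highest enzyme levels. Other libraries did not all follow. Mutant replicate 3 was at -0.84 for the osteogenic list and -0.04 for the enzymes, and control replicate 3 at 0.18 and -0.06. The 8 chondrogenic markers summed to 9562 to 23329 in mutants and 19305 to 33099 in controls. Most of this sum was Col2a1, at 6634 to 17200 in mutants and 13759 to 22872 in controls. In the mean centred log2 level of the 8 markers mutant replicate 2 was again lowest (-0.76) and control replicate 1 highest (1.35). All 10 osteogenic genes and 7 of 8 chondrogenic genes had lower means in mutants and 0 passed the limma test, with Ibsp, bone sialoprotein, at 2582 ± 2181 normalised counts in mutants and 16656 ± 7149 in controls (SD, n = 4 each). The 12 epithelial markers summed to 32977 to 59397 in mutants and 29975 to 43241 in controls, and the 8 erythroid markers to 16028 to 42326 in mutants and 19448 to 23721 in controls, both highest in mutant replicate 2. All 12 epithelial and all 8 erythroid genes had higher mean log2 levels in mutants, while 7 of the 11 skeletal muscle genes had lower ones. The 11 skeletal muscle markers summed to 15360 to 60399 in mutants and 32182 to 40467 in controls, lowest in mutant replicate 4 and highest in mutant replicate 3. The part of any of these cell types in the enzyme values was not tested. The 6 endothelial markers, 5 of them with lower means in mutants, summed to 10667 to 14212 in mutants and 14303 to 15818 in controls. These sums did not overlap, but the mean centred log2 levels of the markers did. That level was lowest in mutant replicate 2 (-0.38), and mutant replicate 1 (0.067) lay above control replicate 1 (0.023). For 2 of the 6 genes all mutant libraries were below all controls, as for 1.91% of all tested genes. The 6 neuronal markers, 3 of them with lower means, summed to 4337 to 8364 in mutants and 3661 to 6126 in controls, and their centred level was highest in mutant replicate 2 (1.011) and lowest in control replicate 3 (-1.13). No gene of these lists passed, nor did one of the remaining lists: Schwann cell (5 of 5 higher), macrophage (2 of 5 lower) and palatal mesenchyme (3 of 6 lower, with the palate regulator Osr2 at 7105 ± 816 in mutants and 6359 ± 462 in controls).

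**Figure D4:**
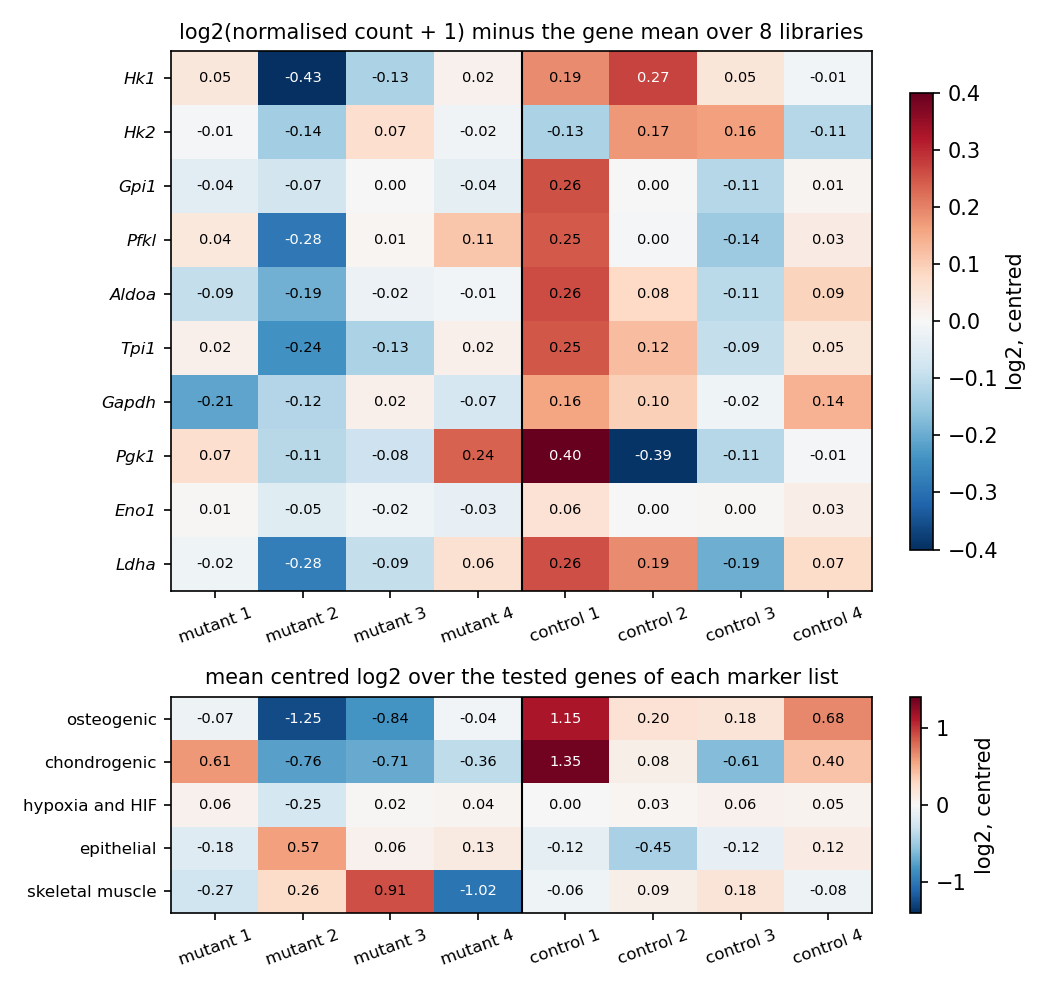
Log2(normalised count + 1) minus the mean over the 8 libraries for the 10 enzyme genes (upper panel), and the mean of the same measure over 5 marker lists (lower panel), with mutant libraries left of the line and control libraries right of it. Red is above and blue below the mean; mutant replicate 2 is mostly blue and control replicate 1 mostly red for the enzymes (means -0.19 and 0.19) and for the osteogenic and chondrogenic lists.

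Levels can be compared between the enzyme genes only per length. Per kilobase of merged exons (GENCODE M21), Aldoa had 4683 ± 263 normalised counts in mutants and 5250 ± 543 in controls, followed by Tpi1 (3483 ± 303 in mutants and 3903 ± 387 in controls) and Ldha (2956 ± 289 in mutants and 3320 ± 437 in controls). Over the 8 libraries Aldoa and Tpi1 overlapped slightly, and Tpi1 and Ldha overlapped widely. Gpi1 (980.0 to 1266), Pfkl (655 to 945) and Gapdh (529 to 685) followed, where Gpi1 stood clear of Pfkl and Pfkl overlapped Gapdh. Gapdh and Eno1 (559 to 601) were not separated. Hk1 (246 to 400) and Hk2 (260.4 to 324) overlapped, and Pgk1 was lowest at 87.0 to 151. The places of Gapdh, Eno1 and Pgk1, most of whose main coding transcript is shared with other annotated genes, are uncertain. Per kilobase of the main coding transcript the order was the same except that Gapdh (1541 to 1992) and Eno1 (1484 to 1595) came ahead of Pfkl (1172 to 1692), with all 3 overlapping, and Hk1 (544 to 887) stood clear of Hk2 (282 to 351).

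The genes of other isozymes and of the remaining glycolytic steps showed no shared direction. Of 20 such genes 15 were tested, 5 with lower and 10 with higher means in mutants, none passed (smallest limma adjusted p = 0.754), and their median log2 difference was 0.10. Pkm, pyruvate kinase of muscle and most embryonic tissue, had 19680 ± 957 normalised counts in mutants and 20568 ± 1587 in controls, and per kilobase of merged exons it came between Aldoa and Tpi1. Ldhb, the subunit that favours lactate use, had 3854 ± 290 in mutants and 3595 ± 265 in controls (log2 difference 0.10). Eno3, the muscle enolase, had the smallest p of the list and 564 ± 143 in mutants and 701 ± 82.7 in controls (log2 difference -0.34, SE 0.159). Bpgm, which makes 2,3-bisphosphoglycerate in red cells, had 1309 ± 247 in mutants and 1115 ± 67.4 in controls. The low-abundance hexokinase genes Hk3 and Hkdc1 had means of 65.3 and 127 normalised counts in mutants and 45.3 and 90.8 in controls. Pgam1, phosphoglycerate mutase of non-muscle tissue, was counted at only 169 ± 40.8 in mutants and 174 ± 50.4 in controls. How much of its sequence is shared with other genes is not given here, so this level is uncertain. Gapdhs, Pgk2, Pklr and Ldhc were among the genes that did not reach the filter.

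The share that each enzyme took of its step's isozymes did not pass the test between groups. Shares of normalised counts per kilobase of merged exons were compared by exact two-sided permutation, where 4 against 4 cannot give a p below 0.0286, for 5 families. Adjusted over 5, a share at that lowest p stays at 0.143 unless other shares also come near it. The test therefore could not pass 1 share that differed alone. Ldha made up 54.6% ± 3.93 of Ldha plus Ldhb in mutants and 59.0% ± 4.11 in controls (SD, n = 4 each; exact permutation p = 0.200, 0.429 adjusted over 5). Its share was 57.0%, 48.7%, 55.8% and 56.8% in mutant replicates 1 to 4, against 62.9%, 59.0%, 53.3% and 60.9% in control replicates 1 to 4. Control replicate 3 lay below 3 of the mutants. Without it the difference was -6.34 percentage points (exact permutation p = 0.0286, the lowest possible, and 0.143 adjusted), against -4.45 with all libraries. Without mutant replicate 2, the lowest of the mutants, it was -2.50 (exact permutation p = 0.371, 0.771 adjusted). Eno1 made up 57.9% ± 4.0 of the enolases in mutants and 54.3% ± 2.45 in controls (exact permutation p = 0.171, SD, n = 4 each). The Eno1 count, and so this share, is uncertain through the shared sequence described above. Hk2 made up 43.9% ± 2.69 of the hexokinases in mutants and 42.1% ± 2.45 in controls (exact permutation p = 0.257). The Hk2 share depended on the length used and was 29.1% ± 2.25 in mutants and 27.1% ± 2.12 in controls per kilobase of the main coding transcript (SD, n = 4 each; exact permutation p = 0.229). Pfkl made up 48.2% ± 1.13 of the phosphofructokinases in mutants and 48.1% ± 3.43 in controls, and Aldoa 98.6% ± 1.11 of the aldolases in mutants and 99.0% ± 0.540 in controls (exact permutation p = 0.886 and 0.657). The adjusted p was 0.429 or above for all 5. The shares of Eno1, Ldha and Pfkl also depended on the length used. Per kilobase of the main coding transcript Eno1 was at 74.5% ± 2.72 in mutants and 72.1% ± 1.93 in controls. On the same length Ldha was at 65.1% ± 3.66 in mutants and 69.1% ± 3.66 in controls. Pfkl was at 57.5% ± 1.31 in mutants and 57.5% ± 3.01 in controls.

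Routes into and out of glycolysis likewise held no gene that passed. Of 8 tested glucose and lactate transport genes 4 had lower and 4 had higher means in mutants. Slc16a1, the monocarboxylate transporter MCT1, had 1368 ± 86.5 normalised counts in mutants and 1220 ± 38.8 in controls, and Slc2a1, the glucose transporter GLUT1, had 3840 ± 369.6 in mutants and 3458 ± 381 in controls (log2 differences 0.16 and 0.15; limma adjusted p = 0.754 and 0.785). The genes of the bisphosphatase switch, which sets the level of the phosphofructokinase activator fructose 2,6-bisphosphate, were lower in 2 of 5 cases, and those of pyruvate entry into mitochondria in 6 of 14. Of the 6 gluconeogenesis genes only G6pc3 and Pck2 were tested, both with lower means. In the pentose phosphate pathway, which branches off at glucose 6-phosphate, 6 of 8 genes had higher means, with Taldo1, transaldolase, at 2437 ± 173 in mutants and 2140 ± 155 in controls (log2 difference 0.19, SE 0.0732, limma adjusted p = 0.754). In the citric acid cycle 8 of 16 were lower. Suclg2, a succinyl-CoA ligase subunit, had 784 ± 66.4 in mutants and 931 ± 94.6 in controls, and Cs, citrate synthase, had 7650 ± 457 in mutants and 7024 ± 282 in controls.

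Genes known to answer to the regulators of glycolysis had differences in both directions. Of 25 genes of the hypoxia list 14 had lower and 11 had higher means in mutants, with 0 passing the limma test and a median log2 difference of -0.04. P4ha1, a collagen prolyl hydroxylase induced by hypoxia, had 4360.3, 3500.0, 4253.9 and 4719.5 normalised counts in mutants, against 4916.3, 5767.3, 4945.1 and 4811.0 in controls. The mutant libraries of P4ha1 were all below its control libraries (log2 difference -0.28, SE 0.0907, limma adjusted p = 0.754), a pattern that 1.91% of all genes showed in that direction and 1.86% in the other. Epas1, the gene for HIF-2 alpha, had 1153 ± 73.8 normalised counts in mutants and 1423 ± 198 in controls. Ddit4, a stress-induced inhibitor of mTOR signalling, had 3607 ± 252 in mutants and 3168 ± 379.99 in controls. Myc, a known activator of glycolytic genes, had 3411 ± 576 in mutants and 3875 ± 573 in controls (log2 difference -0.19, SE 0.127, limma adjusted p = 0.808), with mutant replicate 2 lowest and control replicate 1 highest, as for the enzymes.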

How the data were processed

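RNA of posterior palatal shelves was sequenced in 8 libraries, 4 mutant and 4 control, grouped by the genotype label and numbered in accession order. Per the submitters' processing notes the authors used STAR 2.7.2 and DESeq2; no build, annotation, strand setting or read counter is named there (not given in the sources used here). The table's gene positions were those of GENCODE M21 (GRCm38) for 95.2% of the IDs compared and for 10 of the 11 enzyme rows. The main Aldoa row was the exception. The deposited signal values are the authors' normalised counts per gene, rounded to 1 decimal; dividing out 1 step per library turned 100% of values between 50 and 5000 into whole reads within 0.06. The deposited log2 values are the authors' variance-stabilised values, used in 1 alternative. No 2 libraries had the same value in more than 0.0661% of 13625 genes.

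The 16647 genes with at least 10 normalised counts in at least 4 libraries were tested with limma 3.58.1 (R 4.3.3, variance trend, genotype as the only term) on log2(normalised count + 1), two-sided, with Benjamini-Hochberg adjustment at 0.05. Fold and percent changes are on that scale. edgeR 4.0.16 and DESeq2 1.42.0 on recovered reads, other pseudocounts (0.5 and 8), filters, scalings, weights, the title number as a block and leaving out libraries were alternatives. A count of 0 allows up to 3 reads in a library (counting error only). Isozyme shares used exact permutation. Promoters and lengths came from RefSeq and GENCODE tables; no genome was used. The genes named beside the 10 enzymes were those of other glycolytic isozymes and steps, and copies that passed the filter. From each list up to 4 genes of smallest p were named as well, of which some are left out. The enzymes and lists were chosen with earlier results of these data known. The fit was tested on simulated data with planted changes larger than those of the enzyme genes. That run cannot tell whether differences as small as theirs would be called. Plots were made in Python 3.11.15 (matplotlib 3.10.9). Some genes of the isozyme list are not reported here, though they count in its totals and shares.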

Additional observations from a re-analysis of the deposited data

Results flagged for a closer look

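Of 84 groups of 4 libraries examined for the enzymes, their isozymes and named genes, 5 held a library far from the other 3 by Dixon's test at 95%, where chance gives about 1 in 20 groups. Mutant replicate 2 accounted for 4 of the 5. Aldoc, the brain aldolase, had 442.0 normalised counts there, against 117.3 to 136.1 in the other mutants. Of the 6 neuronal markers Map2, Tubb3, Elavl3 and Elavl4 were highest in the same library, while Gap43 and Stmn2 were highest in control libraries. In mutant replicate 2 Tubb3 was at 1943 normalised counts, against 413 to 493 in the other mutants. Elavl3, chosen after its values were seen, was at 944 there and 106 to 198 in the other mutants. Gap43 was at 1945 there, inside the range of the other mutants (1735 to 2306). The part of these markers in the Aldoc value was not tested. Taldo1 had 2694 there, against 2318 to 2371 in the other mutants. The share of Aldoa among aldolases was 96.97% there, against 99.1% to 99.3%, a value that includes the same Aldoc count, and the share of Ldha in Ldha plus Ldhb was 48.73%, against 55.8% to 57.0% in the other mutants. The fifth was control replicate 2, with P4ha1 at 5767 normalised counts, against 4811 to 4945 in the other controls.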

How the results depend on the processing

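No enzyme gene passed under any of the 21 alternatives to the fit, where the lowest adjusted p was 0.555 (Hk1 without mutant replicate 1), and 7 to 10 of the 10 genes had lower means in mutants, with medians from -0.17 to -0.04. Hk1, Aldoa (main row), Tpi1, Gapdh, Eno1 and Ldha kept a lower mean in all of them. No scaling moved the median of all genes by more than 0.01. The number of genes called over the whole table was 4, and 28 with DESeq2 (25 lower and 3 higher), 5 with edgeR, 0 with robust variances and 0 to 11 with 1 library left out: 0 without mutant replicate 3, control replicate 2 or control replicate 4, 8 without mutant replicate 4 and 11 without control replicate 3. Signs turned, the cause not being tested, for Hk2 without control replicate 2 (0.0026; range with 1 library left out -0.098 to 0.0026), for Pgk1 without mutant replicate 4 (-0.014) or control replicate 2 (-0.066; range to 0.20), for Pfkl without mutant replicate 2 (0.021) or control replicate 1 (0.0074; range from -0.12), and for the second Aldoa row without mutant replicate 1 (0.067), mutant replicate 3 (0.046), control replicate 2 (0.11) or control replicate 4 (0.12; lowest -0.17). Without mutant replicate 2 and control replicate 1 together, chosen after seeing the data, the second Aldoa row was at -0.23, Gpi1 was at 0.0077 and Pfkl at 0.092. The Pfkl share difference of 0.15 percentage points was -0.030 with plain counts and ran from -1.13 to 1.27 with 1 library left out, and that of Aldoa ran from -0.60 to 0.21.

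With a replicate block made from the number that opens each title, which rests on 6 libraries, 6 genes were called, 0 of them enzymes, and 7 of the 10 enzyme genes were lower; Hk1 was at -0.22, Hk2 at -0.12, Aldoa at -0.05, Tpi1 at -0.08, Gapdh at -0.11, Ldha at -0.03, Eno1 at -0.04 and Pgk1 at 0.23, and signs turned for Gpi1 (0.018), Pfkl (0.051) and the second Aldoa row (0.11). The numbers share no stated meaning, so the libraries were not taken as pairs. Across genes the deviations of same-numbered mutant and control libraries correlated at -0.0077 to 0.10, and those of differently numbered ones at -0.085 to 0.076. Deviations were taken from the mean of each group, which forces positive and negative values to balance. These correlations therefore cannot decide whether a number marks a shared origin. Depth was no less than 29025089 reads, and the 95% intervals of the 10 genes reach from -28.1% (Hk1) to 37.5% (Pgk1).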
